A study of Mus musculus with 15 samples.

Results

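The aquaporin genes of the mouse ovary are described here, as the 9 members of the family whose rows carry the symbols Aqp1, Aqp2, Aqp3, Aqp4, Aqp5, Aqp7, Aqp8, Aqp9 and Aqp11 in a table of 27907 genes. Whole ovaries of 15 females, all 6 months old and in estrus, gave 1 stranded mRNA library per mouse. The 7 HSD17B1-KI females were homozygous for a point mutation, Ser143Ala, that was made in Hsd17b1 with CRISPR/Cas9 and removes the activity of the enzyme that turns estrone into estradiol. The 8 WT females carried no mutant allele and came from the same matings of heterozygous parents. The strain was not given in the sources used here, the mutation is carried in the germ line, and the deposited values are normalized counts, which are reads per gene divided by a size factor for each library.

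Aquaporins are tetrameric membrane channels through which water follows osmotic gradients. Aqp1, Aqp2, Aqp4, Aqp5 and Aqp8 are water channels, Aqp3, Aqp7 and Aqp9 are aquaglyceroporins that also pass glycerol, and Aqp11 is a distant member found in the endoplasmic reticulum. In the ovary, aquaporins have been studied for the filling of the follicular antrum with fluid, and Aqp8 is known from granulosa cells. Aqp2 is best known from the principal cells of the kidney collecting duct, where vasopressin acts through cAMP to bring the channel to the apical membrane and to raise transcription of its gene.

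The family was present in all 15 ovaries, with Aqp1 far above the others. Of the 9 genes, Aqp2 was the member whose level differed most between the genotypes, with means of 153 and 21.3 normalized counts in HSD17B1-KI and WT. Its call depended on the test. The other 8 genes passed the threshold in none of limma-trend, edgeR and DESeq2. Within each genotype Aqp2 varied from mouse to mouse together with Aqp8 and Aqp5, and in each HSD17B1-KI mouse the ratio of Aqp2 to Aqp8 was above that of every WT mouse. This ratio was among 8 compared after the values were seen, all of which contain the same Aqp2 values.

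Between 39092867 and 69972608 reads per library were counted on genes in HSD17B1-KI and between 26544745 and 72362981 in WT. All 7 granulosa cell, 7 oocyte and 6 theca and interstitial cell marker genes were expressed in every ovary, as the tissue label says. WT 1 and WT 8 stood apart in the summed level of markers of the oviduct epithelium, the duct attached to the ovary. The 6 oviduct markers, Ovgp1, Foxj1, Pax8, Dnah5, Tppp3 and Sec14l3, summed to 235496 normalized counts in WT 1 and 156485 in WT 8. In the other mice the sum lay between 509.7 and 28596, and Sec14l3 was at 0 in some of them. Results that rest on WT 1 and WT 8 are therefore given with and without them. On the mean of the centred log2 values of the 6 markers, WT 1 and WT 8 were at 5.12 and 4.82. HSD17B1-KI 1 and HSD17B1-KI 3 followed at 3.11 and 2.77, and WT 7 and WT 2 at 2.17 and 2.08. Mice with high oviduct markers thus remain when WT 1 and WT 8 are left out. Hsd17b1 itself did not pass the threshold (log2 fold change 0.36 with a standard error of 0.24 in limma-trend, adjusted p = 0.666), and as the mutation is a point mutation, its level does not check the genotype labels.

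Aqp2 and Aqp5 are neighbours on chromosome 15 and are shown first, because Aqp2 carries the main difference. On GRCm38 with GENCODE release M21, Aqp2 (ENSMUSG00000023013) lies at chr15:99579055-99584547 and Aqp5 (ENSMUSG00000044217) at chr15:99590782-99594829, both on the plus strand and 6235 bases apart. Aqp6 (ENSMUSG00000043144) follows at chr15:99601400-99605477. Aqp1 (ENSMUSG00000004655) is on chromosome 6, Aqp3 (ENSMUSG00000028435) and Aqp7 (ENSMUSG00000028427) are on chromosome 4, and Aqp8 (ENSMUSG00000030762) and Aqp11 (ENSMUSG00000042797) are on chromosome 7, the former at chr7:123462291-123468004 on the plus strand. Aqp9 (ENSMUSG00000032204) overlaps a processed pseudogene and an antisense gene, and Aqp4 (ENSMUSG00000024411) an antisense gene, all on the opposite strand. The strand setting of the counting is not stated, so that the counts of Aqp9 and Aqp4 are uncertain.

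The stretches before Aqp2 and Aqp8 are printed 5′ to 3′ because the mRNAs of both genes moved together across mice while Aqp2 had the larger difference between the genotypes. They come from RefSeq on GRCm38.p6, plus strand, at chr15:99578806-99579054 and chr7:123462044-123462290, and end at the base before each gene in GENCODE. Capitals mark matches to 6 motifs searched on both strands: the core of the cAMP response element TGACG, its palindrome TGACGTCA, AAGGTCA of NR5A1, AGATAA of GATA factors, TGANTCA of AP-1 and the TATA box TATAAA.
Aqp2: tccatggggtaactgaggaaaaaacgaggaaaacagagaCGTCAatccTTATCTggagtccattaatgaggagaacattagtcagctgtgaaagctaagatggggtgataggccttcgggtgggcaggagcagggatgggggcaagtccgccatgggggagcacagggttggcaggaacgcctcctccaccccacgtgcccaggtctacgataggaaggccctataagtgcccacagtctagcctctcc
Aqp8: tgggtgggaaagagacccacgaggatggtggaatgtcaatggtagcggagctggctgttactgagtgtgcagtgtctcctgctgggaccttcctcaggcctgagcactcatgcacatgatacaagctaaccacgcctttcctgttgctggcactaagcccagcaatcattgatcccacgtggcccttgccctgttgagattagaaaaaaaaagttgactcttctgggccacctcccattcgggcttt
The Aqp2 stretch held the core of the cAMP response element on the minus strand, from 211 bases before the RefSeq start, and a GATA motif on the minus strand from 202 bases before it. The Aqp8 stretch held none of the 6 motifs. Among 32851 RefSeq promoters, the first 250 bases held TGACG in 17.8% and AGATAA in 9.99%, so that neither match is rare. The palindrome was present in 1.55%, the NR5A1 motif in 4.08%, the AP-1 motif in 6.75% and the TATA box in 12.4%. A match of letters does not show that a factor binds there.

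Levels of different genes were compared per kilobase of merged exons. Aqp1, the water channel of microvascular endothelium and red cells, had the highest level, with 994 ± 184 normalized counts per kb (SD, n = 15). This was 8.08 times the next gene, and Aqp1 was above Aqp5 in all 15 mice. It was at the 87.7th percentile of 21322 expressed genes with a known length. Aqp5, a water channel of secretory glands, followed with 123 ± 92.0 normalized counts per kb and was above Aqp8 in 13 of 15 mice.

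Aqp8 had 59.3 ± 65.2 and Aqp2 58.4 ± 75.2 normalized counts per kb over the 15 mice. Aqp8 was above Aqp2 in 8 of 15 mice, which were the 8 WT mice, and below it in all 7 HSD17B1-KI mice. The order of these neighbours was thus divided by genotype. Aqp2 had 108 ± 87.5 normalized counts per kb in HSD17B1-KI and 15 ± 11.5 in WT, whereas Aqp8 had 40.6 ± 29.1 and 75.7 ± 84.3. The last 5 genes were all below 10 normalized counts per kb on average. They were Aqp7 (9.84 ± 4.90), Aqp9 (9.78 ± 1.91), Aqp11 (8.21 ± 2.91), Aqp3 (6.02 ± 2.73) and Aqp4 (4.66 ± 7.85), each in normalized counts per kb over 15 mice. Each of them was above the next in 7 to 11 of the 15 mice, so that their order is not settled, and with the longest annotated transcript as the length Aqp9 and Aqp11 came before Aqp7.

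**Figure D1:**
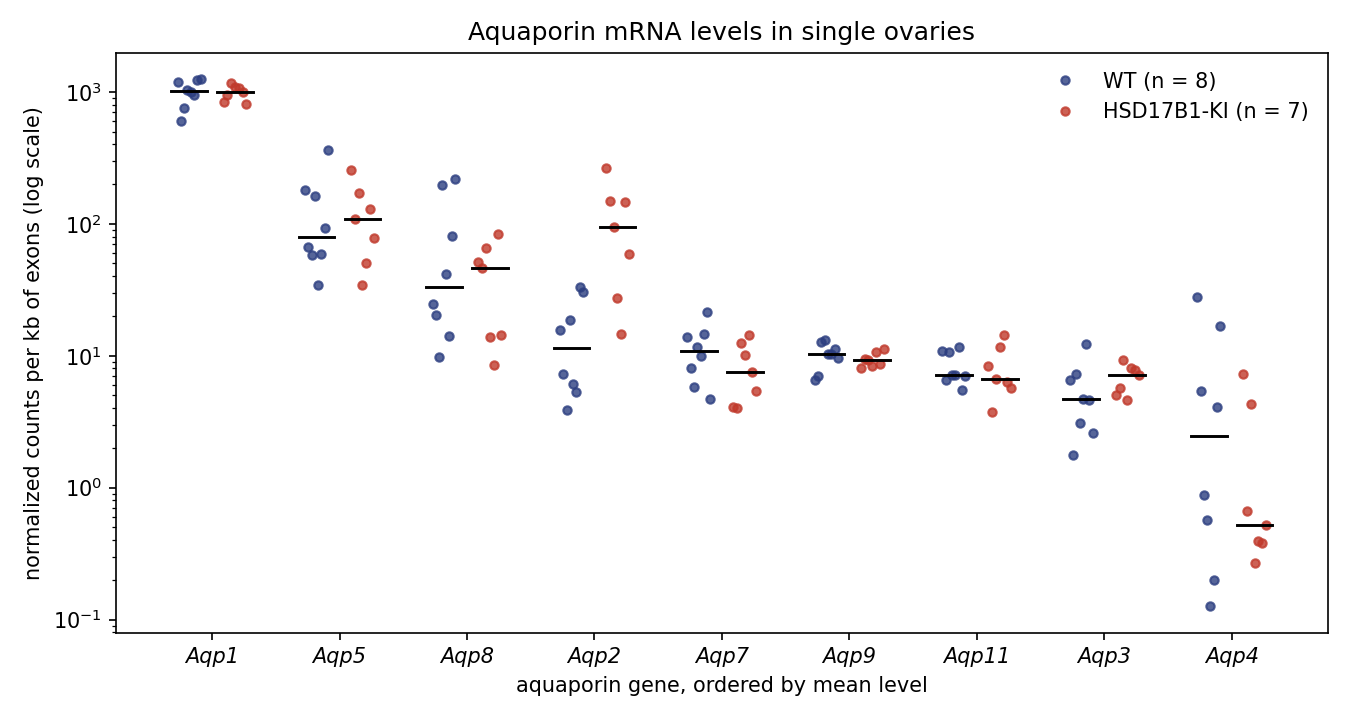
Level of each aquaporin gene in normalized counts per kb of exons on a log scale, with 1 point per mouse, black lines at the group medians, and WT in blue and HSD17B1-KI in red. Aqp1 lies above all others, with 994 normalized counts per kb on average, and 5 of the 7 HSD17B1-KI points of Aqp2 lie above all WT points.

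In the makeup of the family, the share of Aqp2 differed most between the genotypes. Per kb, the 9 genes summed to 1291 ± 183 normalized counts in the 7 HSD17B1-KI mice against 1258 ± 384 in the 8 WT mice (± SD). Aqp1 made up 77.5% ± 11.3 of this sum in HSD17B1-KI and 81.1% ± 8.48 in WT. The share of Aqp2 was 8.02% ± 5.96 in HSD17B1-KI and 1.08% ± 0.618 in WT, while that of Aqp5 was 8.81% ± 4.88 and 9.18% ± 5.05. Aqp8 made up 2.98% ± 1.94 in HSD17B1-KI and 5.15% ± 4.82 in WT, and Aqp4 0.138% ± 0.184 and 0.499% ± 0.664. In HSD17B1-KI 1 Aqp2 reached 18.3% of the sum, and Aqp1 was at its lowest share, 58.1%. Of the other 2 family members in the table, Aqp12 (ENSMUSG00000045091) had 30.9 ± 9.96 normalized counts per kb, more than the 5 lowest of the 9, and Aqp6 was at 0 to 10.5 normalized counts and too low to be tested. Aqp12 had a limma-trend log2 fold change of 0.16 (adjusted p = 0.858).

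Whether the loss of HSD17B1 activity went with changed aquaporin mRNA was asked by comparing the genotypes with limma-trend on log2(normalized count + 1), across the 21525 genes whose mean reached 2 normalized counts. Two-sided p-values were adjusted by Benjamini-Hochberg, with a threshold of 0.05 on the adjusted p for a gene to be DE (differentially expressed). All 9 aquaporin genes passed the filter. None of the 9 was DE, where 0.214% of all genes tested were. At an unadjusted p under 0.05 there was 1 aquaporin gene, Aqp2, against 10% of all genes tested, so that 1 of 9 is close to the share of all genes. With DESeq2 on reads recovered from the table, 1 of the 9, again Aqp2, was DE, against 2.30% of the genes with an adjusted p. The study names Aqp2 among its most upregulated genes, and the members were chosen with earlier results known. This share therefore does not test the family. edgeR called none of the 9. Over all genes the median log2 fold change was -0.02, and 4 of the 9 had a positive sign.

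In HSD17B1-KI mice 1 to 7, Aqp2 had 377, 211, 134, 38.6, 20.7, 207 and 83.5 normalized counts. In WT mice 1 to 8 it had 22.1, 10.3, 5.50, 26.4, 8.65, 7.50, 46.9 and 42.9. These stood for 17 to 325 reads in HSD17B1-KI and 5 to 45 in WT.

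The highest 5 values were all from HSD17B1-KI mice and lay above every WT mouse, whereas HSD17B1-KI 4 and HSD17B1-KI 5 lay within the WT range. The ratio of the means was 7.20. On the log2 scale the difference was 2.63 (standard error 0.61, 95% CI 1.33 to 3.93, limma-trend adjusted p = 0.0920), which is a fold between 2.52 and 15.3 on values with a count of 1 added. DESeq2 gave a log2 fold change of 2.85 (adjusted p = 0.000174) and edgeR 2.85 (adjusted p = 0.0692). With each mouse omitted in turn, the limma-trend log2 fold change stayed between 2.33 and 3.02 and the adjusted p between 0.0277 and 0.218, below the threshold only without HSD17B1-KI 5, the mouse with the lowest count of its group. The exact permutation test gave an unadjusted p of 0.00357 on log2 values and of 0.00186 on the means of unlogged normalized counts. Without WT 1 and WT 8 the log2 fold change was 2.93 (limma-trend adjusted p = 0.182). With the oviduct score, the mean of the centred log2 values of the 6 markers, as a second term in the fit it was 2.87 (adjusted p = 0.0252).

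A score of the theca and interstitial markers, Cyp17a1, Insl3, Star, Cyp11a1, Ptch1 and Acta2, divided the mice as Aqp2 did. This score, again the mean of centred log2 values, lay between 0.46 and 0.83 in the 5 HSD17B1-KI mice with high Aqp2 and reached at most 0.18 in WT. HSD17B1-KI 4 and HSD17B1-KI 5 were at -0.49 and -0.32, within the WT range. The summed level of these 6 genes did not divide the mice in this way, with 268186 to 566763 normalized counts in HSD17B1-KI and 200624 to 454113 in WT, and none of them was at 0 in any mouse. On this sum HSD17B1-KI 4 and HSD17B1-KI 5, with low Aqp2, were the highest of all mice, at 566763 and 538734. HSD17B1-KI 6, with high Aqp2, was the lowest of its group, at 268186. Cyp17a1 and Insl3 are among the genes that the study reported as upregulated in HSD17B1-KI ovaries, so the score was not independent of the genotype. The part of these 6 markers in the difference of Aqp2 was not tested.

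As whole ovaries were sequenced, a difference in the number of cells that express a gene and a difference in mRNA per cell cannot be told apart here. The collecting duct list, Aqp2, Avpr2, Scnn1g, Fxyd4 and Hsd11b2, was summed to 654 to 2620 normalized counts in HSD17B1-KI and 791 to 3568 in WT. Avpr2, Scnn1g and Fxyd4 were each at 0 in some mice. The sum was carried by Hsd11b2, the enzyme that inactivates glucocorticoids, with 1638 ± 679 in the 7 HSD17B1-KI mice against 1779 ± 767 in the 8 WT mice (± SD), and Avpr2, the renal vasopressin receptor, did not exceed 1.70 normalized counts in any mouse.

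**Figure D2:**
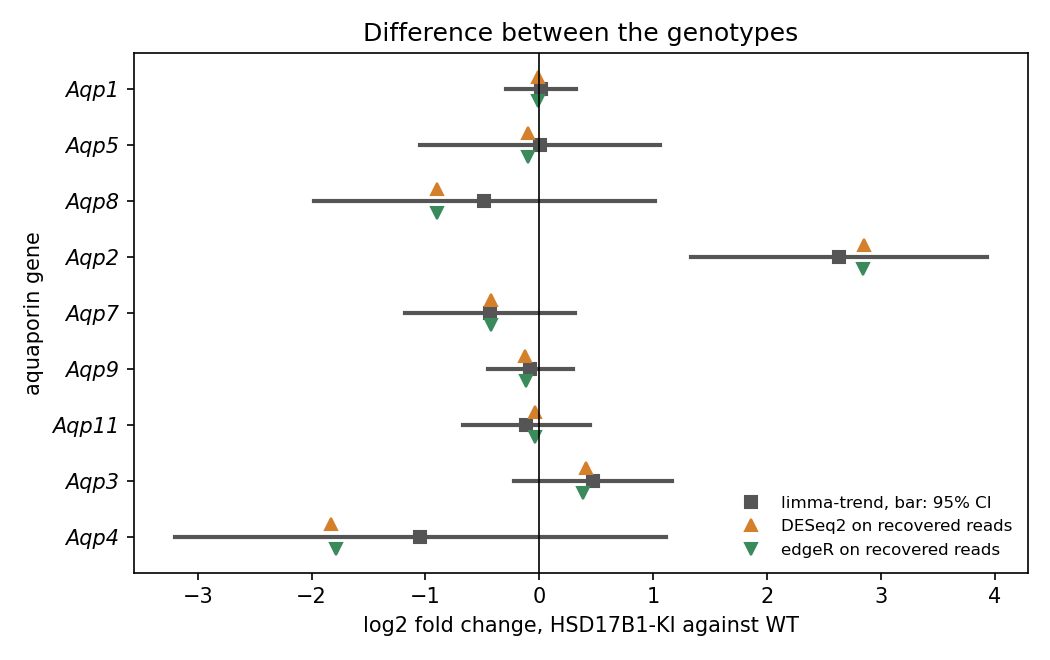
log2 fold change of each aquaporin gene between HSD17B1-KI and WT, with squares and bars for limma-trend and its 95% confidence interval and triangles for DESeq2 and edgeR. The interval of Aqp2, from 1.33 to 3.93, is the only one of the 9 that leaves out 0.

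Among the other water channels, Aqp1 had between 2122 and 3047 normalized counts in HSD17B1-KI, with a median of 2618, and between 1574 and 3268 in WT, with a median of 2675. The groups overlapped almost fully. The log2 fold change was 0.01 with a 95% CI of -0.30 to 0.32 (limma-trend adjusted p = 0.982), so that a fold above 1.25 or below 0.815 lay outside the interval, and its sign changed with edgeR and DESeq2. For no other member was the interval as narrow, and its coverage of 1804 to 4682 reads per mouse was the highest of the 9.

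Aqp5 lay between 89.0 and 669 normalized counts in HSD17B1-KI (median 281) and between 89.7 and 945 in WT (median 207). The mice differed up to 10.6-fold, but both genotypes covered the same range. The log2 fold change of 0.01 had a 95% CI of -1.05 to 1.06 (limma-trend adjusted p = 0.998), which is a fold between 0.483 and 2.09, and its sign changed with edgeR and DESeq2. WT 8 had the highest Aqp5, and without WT 1 and WT 8 the log2 fold change was 0.47 (limma-trend adjusted p = 0.838). Aqp5 thus did not show the difference of its neighbour Aqp2, and the other tested genes beside this pair, Nckap5l, Bcdin3d, Faim2, Racgap1, Asic1 and Smarcd1, were not DE either. Of these, Faim2, an inhibitor of death receptor signalling, had the largest difference, with 42.2 ± 22.9 normalized counts in the 7 HSD17B1-KI mice against 106 ± 59.9 in the 8 WT mice (± SD) (log2 fold change -1.32, limma-trend adjusted p = 0.248). Its sign was opposite to that of Aqp2.

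Aqp8, which conducts water and also ammonia and hydrogen peroxide, ranged from 13.4 to 132 normalized counts in HSD17B1-KI, with a median of 73.5, and from 15.4 to 343 in WT, with a median of 52.2. Both highest values, 343 and 313, were those of WT 8 and WT 4. The log2 fold change was -0.48 (95% CI -1.98 to 1.02, limma-trend adjusted p = 0.868) and -0.90 with both edgeR and DESeq2 (adjusted p = 0.656 and 0.576). It was -0.22 without WT 1 and WT 8 (limma-trend adjusted p = 0.975) and moved between -0.77 without WT 3 and -0.15 without WT 8 when 1 mouse was omitted. Aqp4, the main water channel of astrocytes, ranged from 1.68 to 45.3 normalized counts in HSD17B1-KI, with a median of 3.25, and from 0.787 to 175 in WT, with a median of 15.4. WT 1, WT 8 and HSD17B1-KI 1 were the highest mice, and the interval of its log2 fold change of -1.04 was the widest of the family, from -3.20 to 1.11 (limma-trend adjusted p = 0.786). Without WT 1 and WT 8 this difference was 0.03.

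None of the glycerol channels passed the threshold. Aqp3, known from the basolateral membrane of epithelia and from epidermis, had 12.4 ± 3.14 normalized counts in the 7 HSD17B1-KI mice against 9.79 ± 6.16 in the 8 WT mice (± SD), with a log2 fold change of 0.47 (95% CI -0.23 to 1.16, limma-trend adjusted p = 0.687). WT 6 had the highest value, 22.5. Aqp7, the glycerol exit channel of adipocytes, had 23.4 ± 11.6 in HSD17B1-KI and 31.8 ± 15.2 in WT, with a log2 fold change of -0.43 (95% CI -1.18 to 0.31, limma-trend adjusted p = 0.730). Aqp9, the glycerol entry channel of hepatocytes, had 38.9 ± 4.88 in HSD17B1-KI and 42.0 ± 9.98 in WT, a log2 fold change of -0.08 (95% CI -0.45 to 0.29, limma-trend adjusted p = 0.918). Aqp9 and Aqp1 varied least of the family, with the highest mouse at 2.02 and 2.08 times the lowest. Aqp11, whose loss is known to damage the proximal tubule of the kidney, had 76.2 ± 34.5 normalized counts in HSD17B1-KI and 78.3 ± 21.9 in WT, with a log2 fold change of -0.11 (95% CI -0.67 to 0.45, limma-trend adjusted p = 0.924). HSD17B1-KI 5 and HSD17B1-KI 4, the mice with the lowest Aqp2 of their group, had the highest Aqp11 of all mice, 134 and 109. Without WT 1 and WT 8 the log2 fold changes of Aqp1, Aqp3, Aqp7, Aqp9 and Aqp11 were 0.12, 0.42, -0.54, -0.18 and -0.0746, with limma-trend adjusted p-values from 0.739 to 0.981.

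Correlation between the genes was asked next, on log2 values from which the mean of each genotype had been subtracted, so that the genotype itself could not give a correlation. Of the 36 pairs, 4 passed the threshold after adjustment over the 36, in a permutation test within genotype with 100000 draws. Pairs of other genes were not counted, so 4 of 36 cannot be set against a share over all genes. Among the genes of the pathway lists given further below, the r with Aqp2 ranged from -0.92 for Adcy3 to 0.80 for Casr. Aqp2 and Aqp8 had a Pearson r of 0.82 (permutation p = 0.0003, adjusted p = 0.00846) and a Spearman rho of 0.80 (permutation p = 0.00085, adjusted p = 0.0153). Aqp2 and Aqp5 had an r of 0.82 (permutation p = 0.00047, adjusted p = 0.00846) and a rho of 0.82 (permutation p = 0.0007, adjusted p = 0.0153). In the 7 HSD17B1-KI mice alone r was 0.87 for Aqp2 with Aqp8 (exact permutation p = 0.0111) and 0.89 for Aqp2 with Aqp5 (exact permutation p = 0.00913), and in the 8 WT mice it was 0.83 (exact permutation p = 0.0160) and 0.78 (exact permutation p = 0.0276). The rho of Aqp2 with Aqp8 was 0.71 in HSD17B1-KI (exact permutation p = 0.0881) and 0.86 in WT (exact permutation p = 0.0107). That of Aqp2 with Aqp5 was 0.82 (exact permutation p = 0.0341) and 0.76 (exact permutation p = 0.0368). Without HSD17B1-KI 1 and WT 3, the mice farthest from the median of Aqp2, the values were 0.82 and 0.78. Both correlations remained past the threshold in all 15 runs that left out 1 mouse, with r from 0.80 to 0.85 and from 0.78 to 0.87, and without WT 1 and WT 8 (r = 0.83 for both, permutation adjusted p = 0.0323).

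The other pairs past the threshold were Aqp4 with Aqp5 (r = 0.75, permutation p = 0.0023, adjusted p = 0.0276; rho = 0.73, permutation p = 0.00333, adjusted p = 0.0300) and Aqp5 with Aqp8 (r = 0.72, permutation p = 0.00485, adjusted p = 0.0436; rho = 0.75, permutation p = 0.00296, adjusted p = 0.0300). These were less firm. Aqp4 with Aqp5 passed in 6 and Aqp5 with Aqp8 in 2 of the 15 runs that left out 1 mouse, and neither passed without WT 1 and WT 8 (r = 0.62 and 0.73, permutation adjusted p = 0.174 and 0.0510). Within genotypes, r was 0.83 in HSD17B1-KI (exact permutation p = 0.0198) and 0.72 in WT (exact permutation p = 0.0460) for Aqp4 with Aqp5. It was 0.82 (exact permutation p = 0.0284) and 0.67 (exact permutation p = 0.0734) for Aqp5 with Aqp8. Without the 2 mice farthest from the median of the first gene, r fell to 0.66 and 0.63. Another 3 pairs had an unadjusted permutation p under 0.05 that did not survive adjustment, namely Aqp2 with Aqp11 (r = -0.64), Aqp8 with Aqp11 (r = -0.58) and Aqp2 with Aqp4 (r = 0.57), with permutation adjusted p-values from 0.132 to 0.138. Aqp1 was correlated with no other member past the threshold in the 15 mice, while without WT 1 and WT 8 its correlation with Aqp7 was 0.75 (permutation adjusted p = 0.0323).

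**Figure D3:**
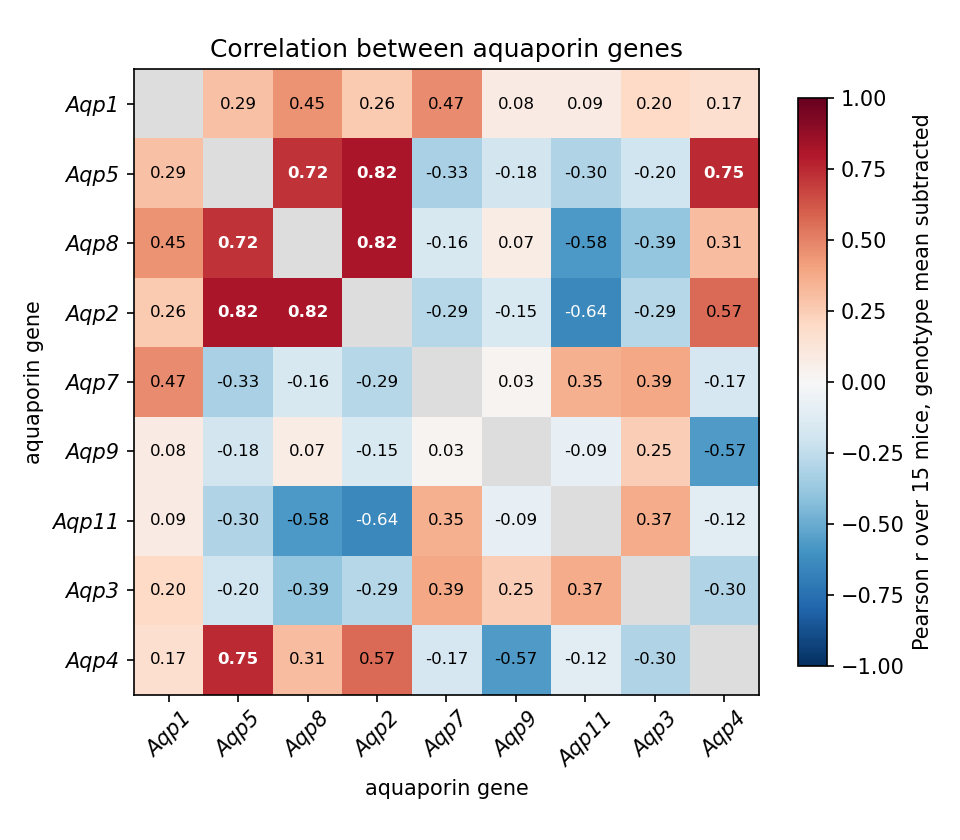
Pearson r between the aquaporin genes over 15 mice, on log2(normalized count + 1) with the genotype mean subtracted and genes in order of level. Bold values mark the 4 pairs past the threshold after adjustment over 36 pairs, with r of 0.82 for Aqp2 with both Aqp8 and Aqp5.

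Since Aqp2 moved with Aqp8 and Aqp5 within each genotype but differed from them between genotypes, Aqp2 was set against each other member within the same mouse. This comparison was added after the values were seen, and its 8 exact permutation tests are unadjusted. All 8 contain the same Aqp2 values, whose own difference between the genotypes was 2.63 log2 units. They therefore repeat that difference and are not 8 separate results. The log2 difference of Aqp2 minus Aqp8 was 0.36 or more in every HSD17B1-KI mouse and -0.80 or less in every WT mouse. The genotypes did not overlap, and the mean difference between them was 3.11 (exact permutation p = 0.000155, the smallest that 6435 splits can give). Even HSD17B1-KI 4 and HSD17B1-KI 5, which had Aqp2 counts within the WT range, were above all WT mice on this measure, because their Aqp8 counts of 21.8 and 13.4 were low as well. Against Aqp5 the log2 difference of Aqp2 lay between -2.61 and -0.41 in HSD17B1-KI and between -4.56 and -2.34 in WT, where 6 of 7 HSD17B1-KI mice exceeded the whole WT range, and gave a mean difference of 2.63 (exact permutation p = 0.000466). Against the other 6 genes the mean difference was between 2.16 and 3.68, with exact permutation p-values from 0.00186 to 0.0221 and the highest for Aqp3. In the runs that left out 1 mouse the exact p was at most 0.000583 against Aqp8 and 0.00117 against Aqp5.

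**Figure D4:**
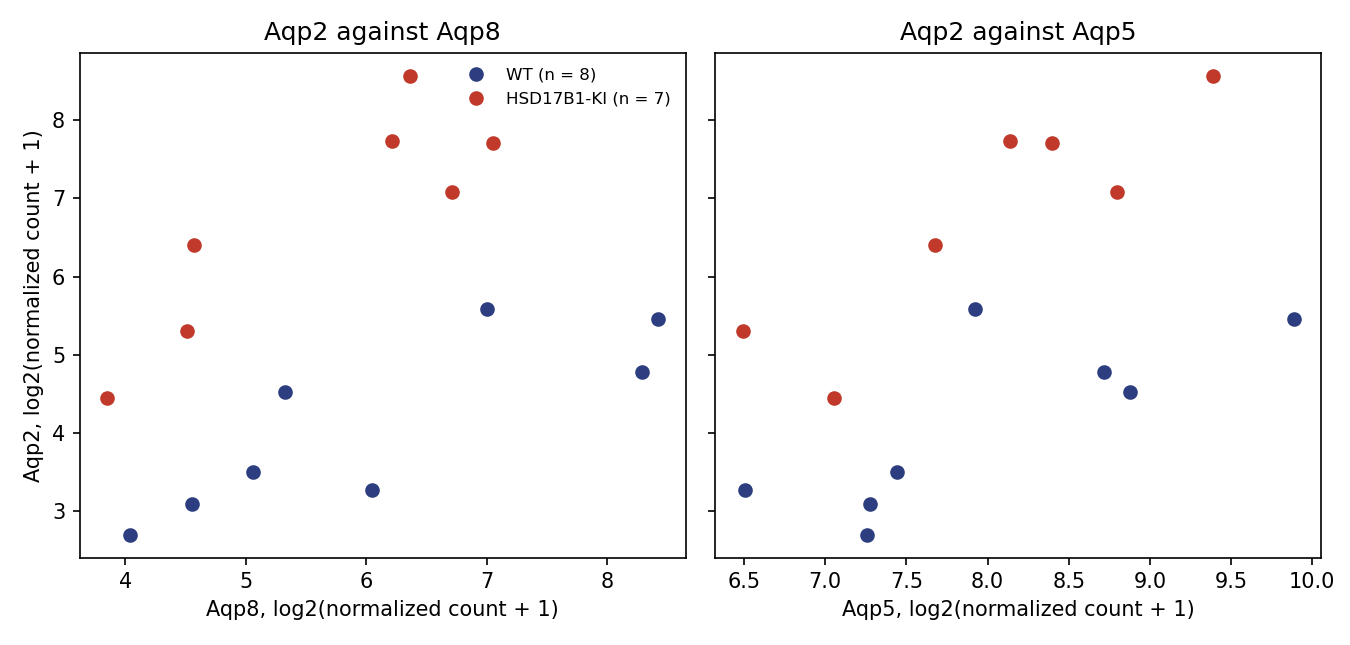
log2(normalized count + 1) of Aqp2 against that of Aqp8 (left) and Aqp5 (right), with 1 point per mouse and WT in blue and HSD17B1-KI in red. Aqp2 rises with both genes in both genotypes, and at a given Aqp8 level all 7 HSD17B1-KI mice lie above the WT mice, 3.11 log2 units apart on average when Aqp8 is subtracted.

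Marker genes of 11 cell types varied between the mice and moved with several members. A marker score is the mean of the centred log2 values of a list, and of 99 correlations between 9 genes and 11 scores, 9 passed the threshold after adjustment over the 99 for Pearson r. The closest was Aqp4 with the oviduct score (r = 0.93, permutation adjusted p = 0.00792; rho = 0.85, permutation adjusted p = 0.0168), where r was 0.91 in HSD17B1-KI (exact permutation p = 0.0290) and 0.94 in WT (exact permutation p = 0.00206). It was 0.88 without WT 1 and WT 8. The 6 mice with the highest oviduct scores, WT 1, WT 8, HSD17B1-KI 1, HSD17B1-KI 3, WT 7 and WT 2, also had the highest Aqp4, from 25.3 to 175 normalized counts, and no other mouse exceeded 5.50. The level of Aqp4 thus rose and fell with the markers of the attached duct, and the part of these markers in the genotype values was not tested beyond the covariate, under which the log2 fold change of Aqp4 was -0.47 (limma-trend adjusted p = 0.734).

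Aqp5 was also correlated with the oviduct score (r = 0.77, permutation adjusted p = 0.0374; rho = 0.82, permutation adjusted p = 0.0168), with r = 0.67 without WT 1 and WT 8. Aqp2 had an r of 0.65 with this score, of 0.70 with the theca and interstitial score and of 0.69 with the granulosa cell score, none of which passed the threshold (permutation adjusted p = 0.0790 for each). In HSD17B1-KI alone the r of Aqp2 with the theca and interstitial score was 0.86 (exact permutation p = 0.0208), and in WT it was 0.40 (exact permutation p = 0.326). With the granulosa cell score it was 0.75 (exact permutation p = 0.0532) and 0.59 (exact permutation p = 0.126). The oviduct score lay between -3.47 and 3.11 in HSD17B1-KI and between -3.98 and 5.12 in WT. Aqp2 and Aqp5 were lower in mice with more macrophage markers, Emr1, Csf1r, Cd68, Mrc1 and C1qa, with r of -0.83 (permutation adjusted p = 0.0142; rho = -0.80, permutation adjusted p = 0.0291) and -0.79 (permutation adjusted p = 0.0200; rho = -0.80, permutation adjusted p = 0.0200). All 5 of these markers were expressed in every mouse, and their sum was 6784 to 12936 normalized counts in HSD17B1-KI and 6722 to 11930 in WT. The part of the macrophage markers in the difference of Aqp2 was not tested. For Aqp2 the r was -0.97 in HSD17B1-KI (exact permutation p = 0.000595) and -0.63 in WT (exact permutation p = 0.0978), and the difference between the genotypes was not tested. Aqp5 was further correlated with the endothelial score (r = -0.75, permutation adjusted p = 0.0392; rho = -0.76, permutation adjusted p = 0.0386), and Aqp4 with the macrophage score (r = -0.68, permutation adjusted p = 0.0458; rho = -0.60, permutation adjusted p = 0.104).

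Aqp7 followed the adipocyte markers Adipoq, Plin1, Cidec, Lep, Adrb3 and Retn (r = 0.81, permutation adjusted p = 0.0142; rho = 0.88, permutation adjusted p = 0.00594), with r of 0.84 in HSD17B1-KI (exact permutation p = 0.0254), 0.87 in WT (exact permutation p = 0.00375) and 0.87 without HSD17B1-KI 2 and HSD17B1-KI 7. These markers summed to 2237 to 6862 normalized counts in HSD17B1-KI and 2015 to 7860 in WT, and none was at 0 in any mouse. The part of adipose tissue in the Aqp7 values was not tested further. Aqp1 was correlated with the same score (r = 0.61, permutation adjusted p = 0.0392; rho = 0.68, permutation adjusted p = 0.0491) but not with the endothelial score (r = 0.09, permutation adjusted p = 0.921) or the erythroid score (r = 0.10, permutation adjusted p = 0.921). Aqp11 was lower in mice with a higher theca and interstitial score (r = -0.76, permutation adjusted p = 0.0416), although its rho of -0.59 did not pass (permutation adjusted p = 0.168).

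**Figure D5:**
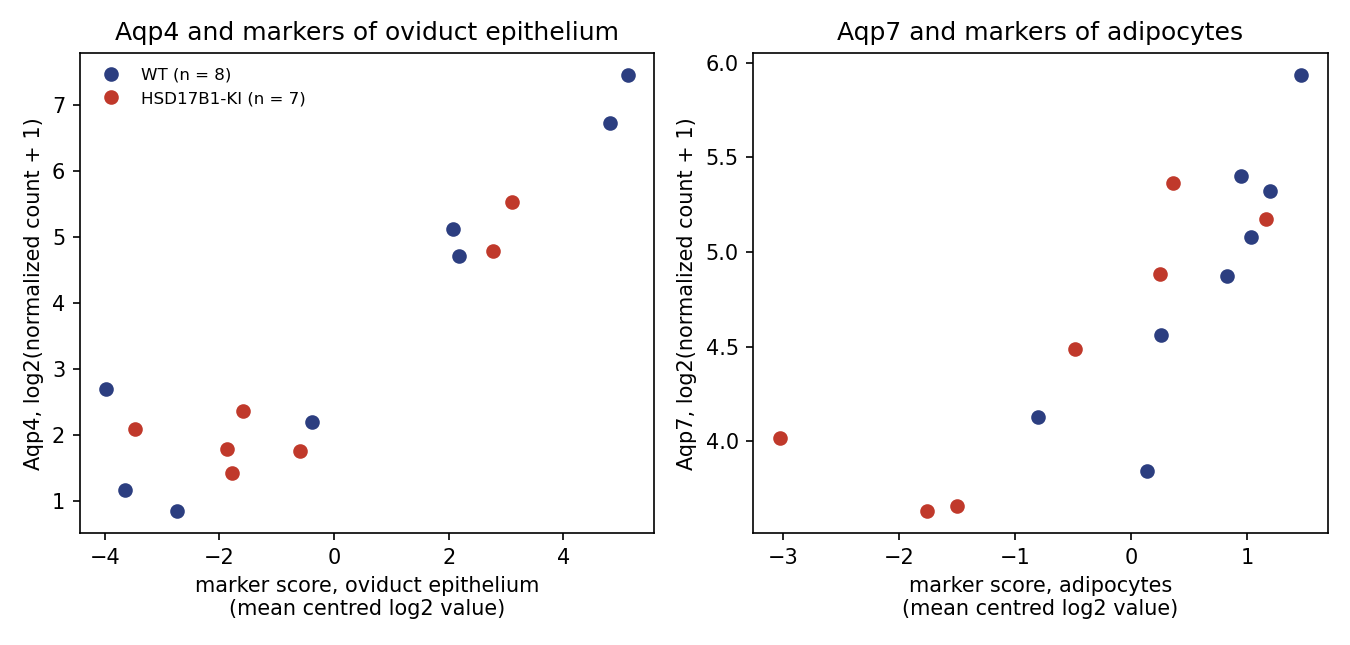
log2(normalized count + 1) of Aqp4 against the oviduct marker score (left) and of Aqp7 against the adipocyte marker score (right), each score being the mean of centred log2 values, with 1 point per mouse, WT in blue and HSD17B1-KI in red. Aqp4 is high in the 6 mice with high oviduct scores (r = 0.93), and Aqp7 rises with the adipocyte score (r = 0.81).

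The genes most like each member were found among the 18046 other genes whose mean reached 10 normalized counts, by Pearson r over 15 mice after subtraction of the genotype mean, as a description. For Aqp2 they were Icosl, a ligand of T cell costimulation (r = 0.97), Ggct (r = 0.96) and Gclc (r = 0.95), enzymes of glutathione turnover and synthesis, Cnot10 of the mRNA deadenylation complex (r = 0.95) and Bpifb5 (r = 0.95). Bpifb5 had 5828 normalized counts in HSD17B1-KI and 1705 in WT (log2 fold change 1.62 with a standard error of 0.56, limma-trend adjusted p = 0.308), whereas Icosl had 2765 and 2229, a much smaller difference. Cnot10 was also among the genes most like Aqp8 (r = 0.92), behind Rai2 (r = 0.94) and C130074G19Rik (r = 0.93).

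For Aqp5 they were Rhpn1 (r = 0.96), Pde9a, a cGMP phosphodiesterase (r = 0.94), and Hspa5, a chaperone of the endoplasmic reticulum (r = 0.93). For Aqp4 they were Iqcd (r = 0.99), Nr1i2, a xenobiotic receptor (r = 0.99), and Lrrc48, a part of motile cilia (r = 0.98). For Aqp7 they were Car3 (r = 0.90), abundant in fat and muscle, Klb, a coreceptor of fibroblast growth factors (r = 0.88), and Lep, the fat cell hormone leptin (r = 0.87). Lep is itself one of the adipocyte markers.

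The closest gene was Pygb, a glycogen phosphorylase, for Aqp1 (r = 0.89), followed by Gsn and Rbp4 (r = 0.87 and 0.86). It was Slc16a10, an amino acid transporter, for Aqp11 (r = 0.95), followed by Pygl and Nol3 (r = 0.93 and 0.91). For Aqp9 the values were lower, with Plekha2, Sulf2 and Erap1 at 0.85, 0.84 and 0.84, and they were lowest for Aqp3, with Gm5436, Rarb and Lyplal1 at 0.79, 0.77 and 0.77.

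The pathway that controls Aqp2 in the kidney was examined next. Of 32 genes from vasopressin and its receptors to adenylyl cyclases, protein kinase A subunits, transcription factors and trafficking proteins, 29 were tested and none was DE. The median log2 fold change was -0.08, against -0.02 over all genes tested. At an unadjusted p under 0.05 there were 2 higher and 2 lower genes among the 29, where 5.36% of all genes tested were higher and 4.64% lower, or 10% in all. Prkar2b, a regulatory subunit of protein kinase A, had the highest log2 fold change of the list, 0.58, with 45217 ± 12036 normalized counts in the 7 HSD17B1-KI mice against 31053 ± 11083 in the 8 WT mice (± SD) (limma-trend adjusted p = 0.339). The regulatory subunits Prkar1a and Prkar2a had log2 fold changes of 0.17 and -0.31 (limma-trend adjusted p = 0.348 and 0.333). Tfcp2l1, a transcription factor of collecting duct cells, had 437 ± 131 in HSD17B1-KI and 809 ± 293 in WT (log2 fold change -0.88, limma-trend adjusted p = 0.128). It was the only one of the 29 genes that DESeq2 called (adjusted p = 0.0127), against 2.30% of all genes with an adjusted p. A single call among 29 is close to that share. The lowest log2 fold change was that of Elf5, an epithelial transcription factor, with -1.27 (limma-trend adjusted p = 0.747).

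The list of epithelial ion and water transport had 16 of 18 genes tested, none of them DE with limma-trend, and a median log2 fold change of -0.35. At an unadjusted p under 0.05, 3 of the 16 were higher and 3 lower, against 5.36% and 4.64% of all genes tested, and DESeq2 called 2, Casr and Atp12a, against 2.30%. The study names both among its most upregulated genes, and the list was chosen with earlier results of these data known. These counts therefore do not test whether the list is enriched. Its highest member was Casr, the calcium-sensing receptor, which in the collecting duct is known to counteract Aqp2, with 35.5 ± 21.7 normalized counts in the 7 HSD17B1-KI mice against 2.91 ± 3.00 in the 8 WT mice (± SD) (log2 fold change 3.24, limma-trend adjusted p = 0.0539, DESeq2 adjusted p = 1.6e-05). Atp12a, a proton and potassium pump, had 640 ± 514 and 106 ± 123 (log2 fold change 2.66, limma-trend adjusted p = 0.0672, DESeq2 adjusted p = 0.00337). Across mice, after subtraction of the genotype mean, Aqp2 had an r of 0.80 with Casr and of -0.18 with Atp12a. The chloride channel Clcn2 had a log2 fold change of 0.35 (limma-trend adjusted p = 0.213), the cotransporter Slc12a2 -0.41 (adjusted p = 0.192) and the sodium pump subunit Atp1b1 -0.35 (adjusted p = 0.358). Slc26a4, an anion exchanger, was at 0 in all HSD17B1-KI mice and at 4.83 ± 6.21 in WT, with a limma-trend adjusted p of 0.428. The urea transporter Slc14a1 had the lowest log2 fold change of the list, -1.95 (limma-trend adjusted p = 0.615), with 23.9 to 852 normalized counts in HSD17B1-KI and 47.5 to 5589 in WT.

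The genes that handle glycerol beside the aquaglyceroporins were tested in 14 of 15 cases, and none was DE with limma-trend. At an unadjusted p under 0.05, 3 of the 14 were lower, against 4.64% of all genes tested, and none was higher, against 5.36%. The median log2 fold change of the list was -0.18. Gyk, the glycerol kinase, had 451 ± 73.8 normalized counts in the 7 HSD17B1-KI mice against 588 ± 84.0 in the 8 WT mice (± SD) (log2 fold change -0.39, limma-trend adjusted p = 0.192, DESeq2 adjusted p = 0.0470). Dgat2, which makes triglycerides, and Lpl, which splits them in the circulation, had log2 fold changes of -1.04 and -0.52 (limma-trend adjusted p = 0.308 and 0.364). The extremes of the list were Gpd1 with -1.06 (limma-trend adjusted p = 0.532) and Gk5 with 0.18 (limma-trend adjusted p = 0.587). Among these genes the adipocyte score varied from -3.03 to 1.16 in HSD17B1-KI and from -0.81 to 1.46 in WT, and its part in their values was not tested.

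Neither of the hormone lists held a DE gene. For gonadotropin and steroid receptors and cAMP signals of the ovary, 9 of 10 genes were tested. The extremes were Lhcgr, the receptor of luteinizing hormone, with 0.85 (limma-trend adjusted p = 0.504) and Adcyap1 with -1.04 (limma-trend adjusted p = 0.798). For hormones and receptors of water balance, 9 of 10 genes were tested. At an unadjusted p under 0.05, 1 of the 9 was higher and 2 were lower, against 5.36% and 4.64% of all genes tested. Nr3c2, the mineralocorticoid receptor, had a log2 fold change of 0.31, Edn1, endothelin, -0.67, and Agtr1a, an angiotensin receptor, -0.90, with limma-trend adjusted p-values of 0.452, 0.496 and 0.423. The median log2 fold change was -0.05 for the former and -0.14 for the latter list.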

How the data were processed

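Libraries of ovarian mRNA, 1 per mouse (7 HSD17B1-KI, 8 WT), were run on a NovaSeq. The submitters' processing notes name bcl2fastq 2.20, STAR 2.7.3 and mm10. The authors counted reads on genes and deposited the resulting signal as normalized counts, that is counts divided by size factors, in 1 table of 27907 genes. The annotation and strand setting of the counting are not given in the sources used here. Every column was matched to a sample, and no columns held identical values. Division of each column by its smallest step gave whole reads for 100% of the values within 0.1 step, and these recovered reads were used for edgeR and DESeq2.

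The comparison used limma-trend (two-sided, Benjamini-Hochberg, genes with a mean of at least 2, genotype as the only term), exact permutation tests over 6435 splits and permutation tests of correlations. The study used DESeq2, which is an alternative here because the deposited values are normalized. Alternatives were edgeR, DESeq2, a replicate block, upper quartile scaling, other pseudocounts (0.1 and 10), other filters (a mean of 10, or none) and the omission of 1 mouse at a time. Chosen after seeing the data were an oviduct marker score as a covariate, 13 mice without WT 1 and WT 8, and Aqp2 relative to the other members. The tests were tested on simulated data. As replicates are separate mice, the p-values measure the spread between mice.

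The members and all gene lists were chosen with earlier results of these data known. Named are the 9 members, Aqp6 and Aqp12, genes of the pathway lists with an unadjusted p under 0.05 or the highest or lowest log2 fold change, the 3 genes most like each member (5 for Aqp2), neighbours of Aqp2 to Aqp6 and marker genes beside a result. A gene of these lists is not reported here. Avp, Avpr1b, Gk and Mip were not matched in the table, and Adgre1 was found as Emr1. GENCODE M21 on GRCm38, the assembly of mm10, held 27533 of the 27907 identifiers, and RefSeq promoters matched 8 of the 9 members, of which 6 kept at least 100 bases before the GENCODE start. Analyses used DESeq2 1.42.0, limma 3.58.1 and edgeR 4.0.16 in R 4.3.3, and pandas 2.3.3, SciPy 1.17.1, NumPy 2.4.6 and Matplotlib 3.10.9 in Python 3.11.15.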

Additional observations from a re-analysis of the deposited data

How the results depend on the processing

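The log2 fold change of Aqp2 kept its direction in all 25 alternatives and that of Aqp3, Aqp7, Aqp8 and Aqp9 likewise. Aqp2 was the 1 aquaporin gene DE with DESeq2, with the oviduct covariate and without HSD17B1-KI 5, and the number was 0 in the other alternatives, so the range without 1 mouse was 0 to 1. All genes gave 46 DE genes, 28 with no filter, 456 with DESeq2, 9 in the 13 mice without WT 1 and WT 8, and 6 (without HSD17B1-KI 2) to 139 (without HSD17B1-KI 5) without 1 mouse.

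With the replicate block (mice 1 to 7 of each genotype) there were 0 DE genes, and Aqp2 had a limma-trend adjusted p of 0.366, with 1735 genes at an unadjusted p under 0.05. Mice of the same number were not paired by the labels, and the correlation of their deviations ranged from -0.55 to 0.55.

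The log2 fold change of Aqp1 was -0.0129 with edgeR and DESeq2 and -0.0861 to 0.0643 without 1 mouse (exact permutation p = 0.487 to 0.968), that of Aqp5 -0.10 with edgeR and DESeq2 and -0.23 to 0.28 without 1 mouse (exact permutation p = 0.576 to 0.998), and that of Aqp11 -0.27 to 0.0498 without 1 mouse (exact permutation p = 0.307 to 0.899). Aqp4 gave 0.0316 in the 13 mice (exact permutation p = 0.970). On mean counts the sign of Aqp1 and Aqp5 changed (exact permutation p = 0.926 and 0.868). Without subtraction of the genotype mean, 0 of the 36 correlations passed, and without 1 mouse 2 to 4 did. The causes were not tested.

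Low counts limit Aqp3 and Aqp4, with 5 to 26 and 1 to 110 reads per mouse. The same holds for Aqp2 in WT, with 5 to 45 reads, and for Aqp7, with 10 to 54.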
